A study of Mus musculus with 24 samples.

Results

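The 10 genes described here are those for liver glucose production from non-sugar precursors and for the response to glucocorticoid hormone that the rule named one by one: Pck1, G6pc, Slc37a4, Fbp1 and Pcx (gluconeogenesis), Tat, Sds and Got1 (amino acid enzymes), and Fkbp5 and Tsc22d3 (glucocorticoid targets). They were found by gene name, and each was present in all 4 tables of liver RNA levels, in which 24443 gene names were listed. All 10 passed the filter on low values in every table. The labels named 24 liver samples, of which 20 had values, 4 in each of 5 groups, and every group was on the C57BL/6 strain. WT mice carried 2 floxed Bcl6 alleles without Cre (Bcl6 fl/fl) and were fed at will or fasted overnight. Bcl6LKO mice (Bcl6 fl/fl; Alb-Cre), fed, lost Bcl6 where the albumin promoter drove Cre, that is in hepatocytes, so that other liver cells kept the gene. PparaKO mice (Ppara-/-), fasted, lacked Ppara in the whole body. Their label named no floxed Bcl6 allele, unlike that of their WT controls, and whether they carried one was not given in the sources used here. DKO mice (Ppara-/-;Bcl6 fl/fl; Alb-cre), fasted, carried both changes. The samples of fasted Bcl6LKO mice were not analysed here. The deposited tables were named as tables of male livers, and age was not given in the sources used here. Nothing in the labels states that each sample is a different mouse, so a p-value reflects sample-to-sample spread, part of which may be technical.

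Gluconeogenesis makes glucose from lactate, glycerol and amino acid carbon when no food comes in. Pyruvate carboxylase and the cytosolic phosphoenolpyruvate carboxykinase bring pyruvate up to phosphoenolpyruvate, fructose-1,6-bisphosphatase bypasses the irreversible step of glycolysis, and glucose-6-phosphatase releases free glucose in the endoplasmic reticulum after a carrier has brought its substrate in. Glucagon, acting through cyclic AMP, and glucocorticoids, acting through the glucocorticoid receptor, raise the pathway in the fasted liver, and insulin lowers it by holding back FOXO1. BCL6 is a transcriptional repressor, and PPARα is a fatty acid-activated receptor that drives the lipid side of the fasting response.

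Levels are on the log2 scale of the deposited values, on which 1 unit is a doubling and low values are drawn towards their mean. The tables were scaled separately, which gives the same WT library a slightly different value in each. Between tables, the mean of a gene over the 4 fasted WT libraries moved by 0.0639 (Pcx) to 0.255 (Got1), and every test was made within a table. An adjusted p is limma's, adjusted by the Benjamini-Hochberg method over all genes tested in the table, and a gene is said to have risen or fallen where it is under 0.05. Values are given in the order of replicates 1 to 4 of a group, and means as ± SD with n = 4. In bulk liver RNA, fewer cells of a type and less RNA per cell cannot be told apart.

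Before the members, the libraries themselves were compared. Ppara was lower in PparaKO (12.12 to 12.29) than in fasted WT (13.07 to 13.32), and in DKO (10.73 to 11.73) than in fasted WT (12.99 to 13.26), without overlap. Bcl6 separated the groups less well. In the Bcl6LKO libraries it lay at 7.62 to 8.54, but fed WT replicate 1 stood at 8.02 among them, while the other fed WT libraries stood at 9.28 to 10.49. In DKO (7.32 to 8.13) Bcl6 lay within the range of fasted WT (6.95 to 9.39), so its level does not check the label there. Libraries also stood apart within groups. The first principal component within fasted WT took 57.8% of the variance in the fasting table and set replicates 1 and 2 (-11.2 and -7.65) against 3 and 4 (8.59 and 10.3), and within DKO it took 67.6% and set replicates 1 and 2 (-17.7 and -13.3) against 3 and 4 (9.54 and 21.4). Within fed WT it set replicate 1 (-13.7) against the other 3 (3.16 to 7.08). The labels name no batch or date for these splits, and results that rest on them are given with and without those libraries. The pairs of libraries left out were chosen after the data were seen. Adjusted p-values from those runs show how a result depends on its libraries and are not tests of a difference.

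The promoters of 4 members are shown first, because Pck1 and G6pc are the classic hormone-controlled genes of the pathway, and because Fkbp5 and Tsc22d3 are the pair of glucocorticoid targets that moved in opposite directions after Bcl6 loss. Promoter sequence from RefSeq (GRCm38.p6, the build called mm10 in the authors' notes) was matched by symbol for 9 of the 10 members, with 14 start sites in all. Each window is the 250 bases before an annotated start, and capitals mark any match on either strand to 4 motifs. These were AGAACA, a single arm of the glucocorticoid receptor site (in 16.1% of 32851 windows of the same length), TGACG, the core of the cyclic AMP response element (17.8%), TGTTTNC, the forkhead core bound by FOXO and FOXA factors (17.8%), and TTCNNNGAA, the STAT core that BCL6 sites resemble (7.02%). No match overlapped another in the windows printed.
Pck1, chr2:173152823-173153072, plus strand: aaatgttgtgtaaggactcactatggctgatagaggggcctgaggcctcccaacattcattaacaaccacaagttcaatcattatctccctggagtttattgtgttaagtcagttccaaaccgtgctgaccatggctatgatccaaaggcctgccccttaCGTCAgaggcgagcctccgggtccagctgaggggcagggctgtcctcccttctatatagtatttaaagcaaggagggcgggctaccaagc
G6pc, chr11:101367466-101367715, plus strand: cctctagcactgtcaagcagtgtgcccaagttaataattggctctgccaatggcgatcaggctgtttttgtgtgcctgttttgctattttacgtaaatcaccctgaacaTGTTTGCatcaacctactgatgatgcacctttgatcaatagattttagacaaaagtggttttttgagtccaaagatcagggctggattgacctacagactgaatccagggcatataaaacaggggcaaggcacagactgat
Fkbp5, chr17:28486150-28486399, minus strand: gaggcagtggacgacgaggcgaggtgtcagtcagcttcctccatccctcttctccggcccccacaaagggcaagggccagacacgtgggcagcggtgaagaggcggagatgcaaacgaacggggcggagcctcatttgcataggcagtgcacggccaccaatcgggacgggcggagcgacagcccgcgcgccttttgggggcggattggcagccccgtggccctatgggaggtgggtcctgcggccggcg
Tsc22d3, chrX:140600523-140600772, minus strand, the start farthest upstream of its annotated starts: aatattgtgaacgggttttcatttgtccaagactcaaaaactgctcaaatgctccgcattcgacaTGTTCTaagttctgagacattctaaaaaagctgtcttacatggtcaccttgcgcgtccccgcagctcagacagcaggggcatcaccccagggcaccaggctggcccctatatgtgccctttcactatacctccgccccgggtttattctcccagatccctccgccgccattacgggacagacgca

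The Pck1 window held the cyclic AMP core on the other strand, with its first base at -90 from the start, and the G6pc window held the forkhead core at -141. The Fkbp5 window held none of the 4 motifs, and the Tsc22d3 window held a single arm of the receptor site at -185. Over the 14 windows, the single arm was found in 1 (Tsc22d3), the cyclic AMP core in 4 (Pck1, Slc37a4 and Tsc22d3), the forkhead core in 3 (G6pc and Slc37a4) and the STAT core in 1 (Tsc22d3). The Slc37a4 windows at chr9:44396696-44396945 and chr9:44396849-44397098 overlap and share a cyclic AMP core, so the windows are not separate. These matches describe the letters of the windows only.

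Fasting raised most of the set. In each knockout some members rose and others fell, and in Bcl6LKO and DKO their counts were near the share over all genes. In fasted against fed WT liver 7 of the 10 genes rose and 0 fell by limma (0 were lower at an unadjusted p under 0.05 either), where 11.9% of 11910 tested genes rose and 11% fell. Their median difference was 0.63, against -0.0025 over all genes. The fold exceeded 2 for 3 of them (Pck1, Got1 and Fkbp5), against 1.16% of all genes in either direction, and the groups did not overlap for 7, against 26.3%. Both the called share and the share without overlap were thus higher than over all genes, for members that were chosen with earlier results of these data known. In Bcl6LKO against fed WT, 3 rose (Fbp1, Tat and Fkbp5) and 3 fell (Pck1, Slc37a4 and Tsc22d3), where 18.3% of 12115 genes rose and 19.8% fell. Fkbp5 was the 1 member past a fold of 2 (4.23% of all genes), and 4 members did not overlap (36.7% of all genes), so that the member counts stood near the background of a comparison in which many genes moved. In PparaKO against fasted WT, 4 rose (Pck1, Tat, Sds and Got1) and 2 fell (G6pc and Pcx), where 11.7% of 11932 genes rose and 13.3% fell. Tat was the 1 past a fold of 2 (1.58% of all genes), and 5 did not overlap (26.7%). In DKO against fasted WT, 1 rose (Tat) and 3 fell (Fbp1, Pcx and Tsc22d3), where 19.3% of 12004 genes rose and 20.8% fell. Past a fold of 2 were 2 (Tat and Tsc22d3, against 6.11%), and 3 did not overlap (39.1%), again near the background. The medians of the 10 were -0.23 in Bcl6LKO, 0.05 in PparaKO and -0.40 in DKO, against -0.0074, 0.0055 and 0.0027 over all genes. Fasted WT is the control in the last 2 comparisons and the fasted group in the first, and fed WT is shared by the first and second, so the comparisons are not independent of each other.

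**Figure D1:**
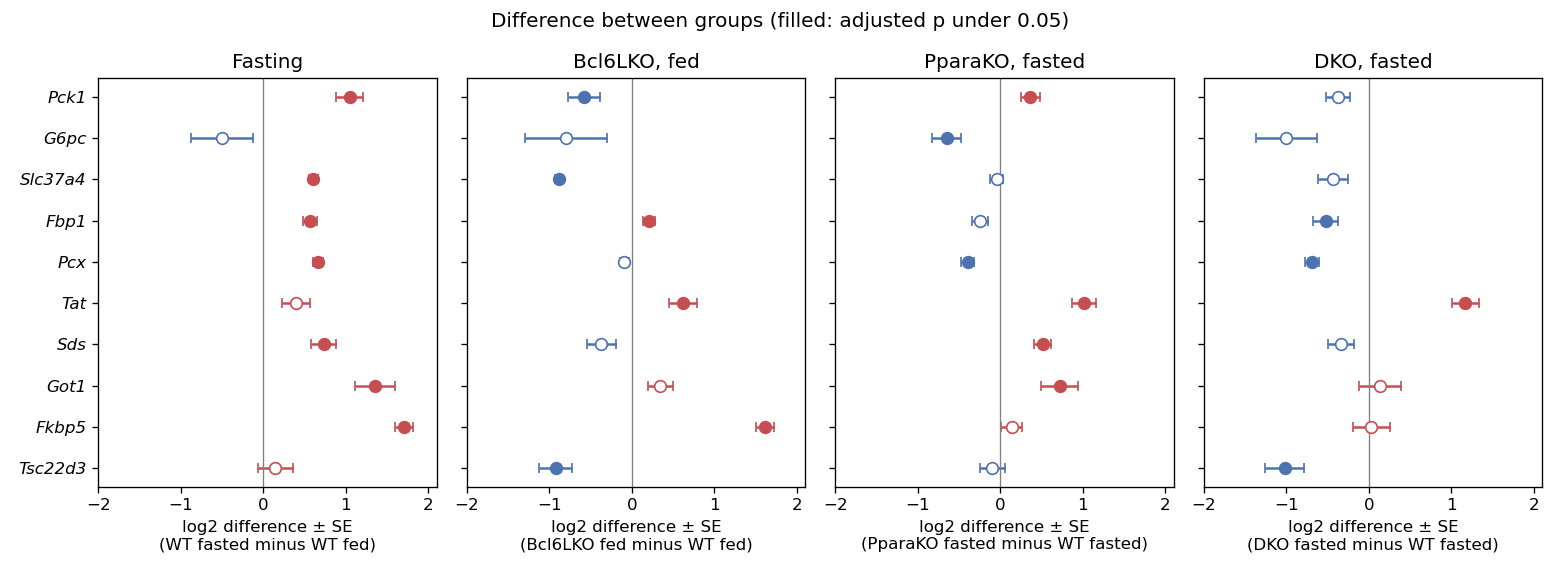
Difference between group means for the 10 genes in each of the 4 comparisons, on the log2 scale with bars of 1 SE, 4 libraries a group. Filled points passed an adjusted p under 0.05: 7 higher after fasting, 3 higher and 3 lower in Bcl6LKO, 4 higher and 2 lower in PparaKO, 1 higher and 3 lower in DKO.

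The scale of the tables bears on these counts. Albumin alone made up 15.3 to 16.5% of the summed linear values of the Bcl6LKO libraries and 3.79 to 6.37% of the fed WT libraries in the same table. With the libraries set to equal totals, the all-gene median in Bcl6LKO moves to -0.22, the higher share of called genes falls from 48% to 12.4%, and the members become 1 higher and 5 lower. Relative to that median every member's difference is as it was. The higher share under equal totals was 19.7% in place of 52% after fasting, with the same 7 members higher and 0 lower, and 31.8% in place of 48.1% in DKO, where 1 member was higher and 6 lower.

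**Figure D2:**
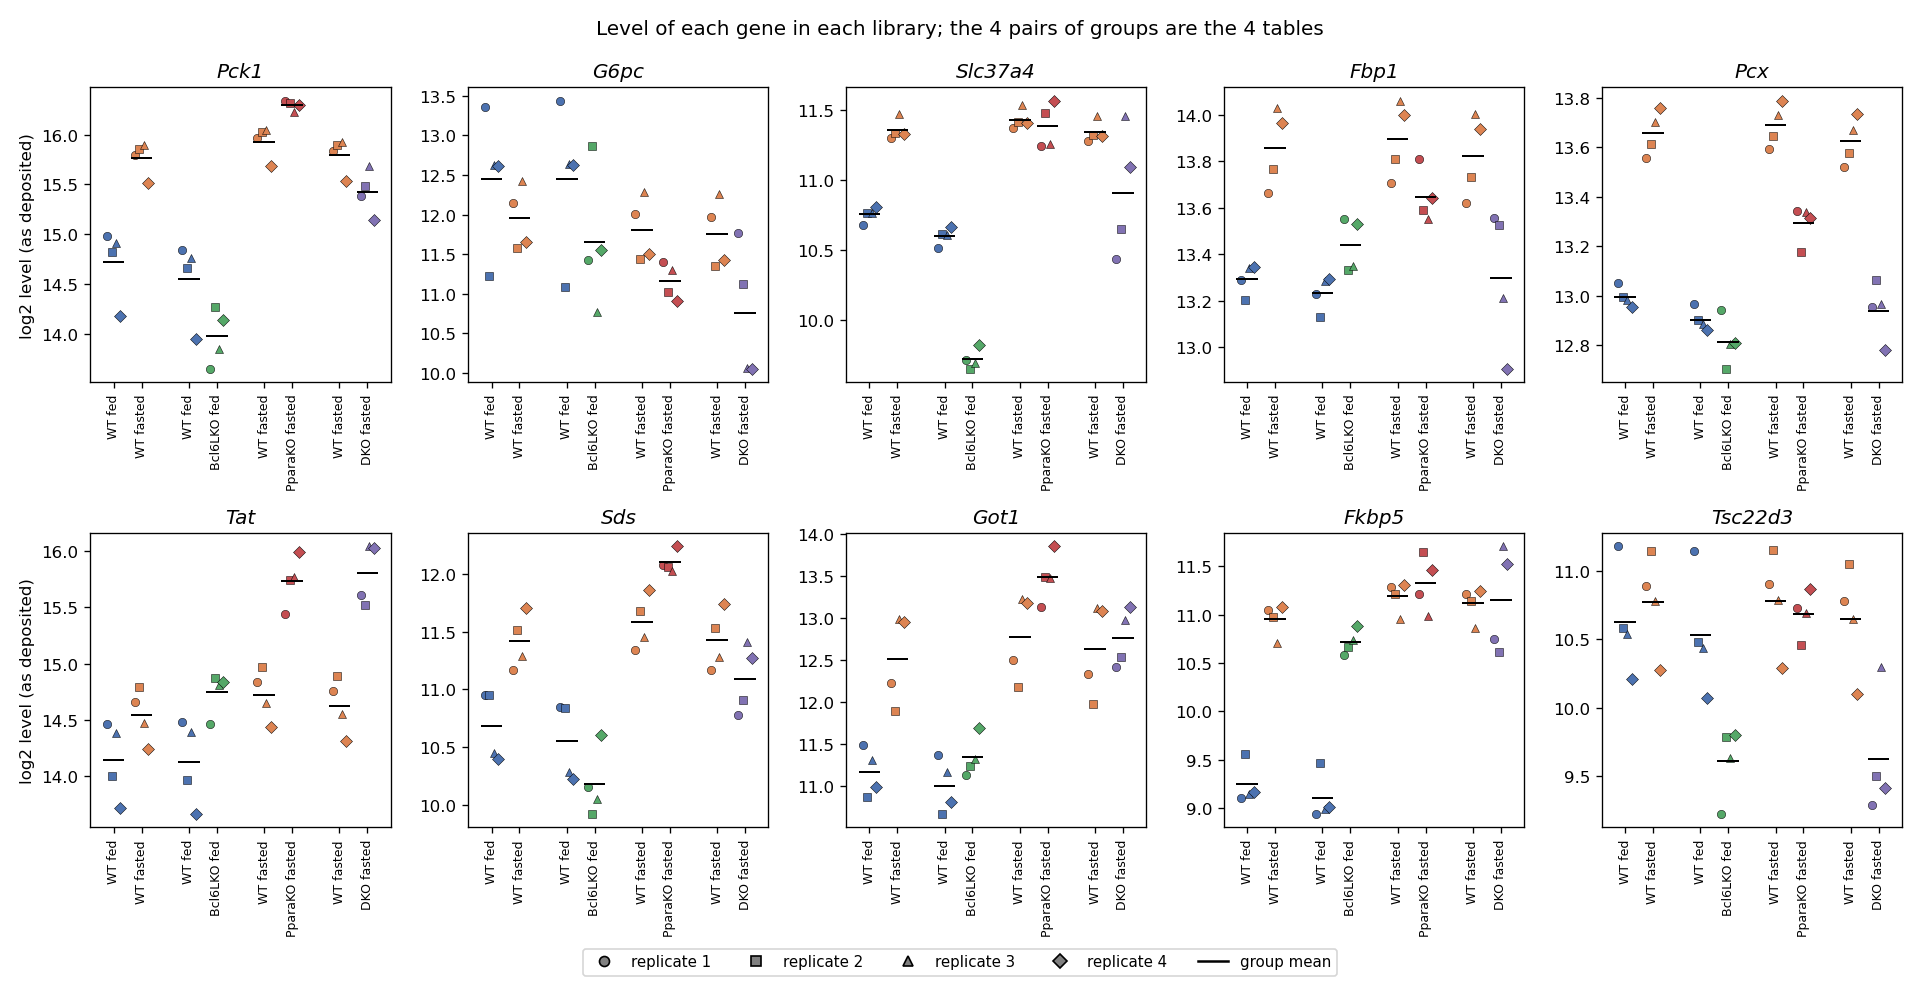
Log2 level of each of the 10 genes in each library, as deposited, with the 4 pairs of groups of the 4 tables side by side and lines at the group means. Pck1, Slc37a4, Fbp1, Pcx, Sds, Got1 and Fkbp5 show no overlap between fed and fasted WT, and G6pc spreads from 11.22 to 13.36 within fed WT.

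Pck1 (ENSMUSG00000027513.11, chr2:173153048-173159273, plus strand) encodes the cytosolic phosphoenolpyruvate carboxykinase, the enzyme that commits oxaloacetate to gluconeogenesis. It stood at 14.98, 14.82, 14.91 and 14.18 in fed WT and at 15.80, 15.86, 15.89 and 15.51 in fasted WT. All fasted libraries were above all fed ones, and replicate 4 was the lowest of both groups. The mean went from 14.72 ± 0.37 to 15.77 ± 0.17 (SD, n = 4 each), a difference of 1.05 (SE 0.17, 2.06-fold, adjusted p = 0.00178). In the table of fed mice, Bcl6LKO libraries stood at 13.65, 14.27, 13.84 and 14.13, against 14.84, 14.66, 14.76 and 13.94 in fed WT. The groups overlapped through fed WT replicate 4, and the difference was -0.58 (SE 0.20, adjusted p = 0.0386). That call was lost without fed WT replicate 1, 2 or 3 or without Bcl6LKO replicate 1, 3 or 4 (adjusted p 0.0529 to 0.101), and under quantile normalization (0.0715) or with robust variances (0.0851), so it is a marginal one.

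The Ppara knockout went the other way for Pck1. PparaKO libraries stood at 16.34, 16.32, 16.22 and 16.30 and fasted WT at 15.96, 16.02, 16.05 and 15.69, without overlap and with a much tighter spread in PparaKO (SD 0.051 against 0.17). The difference was 0.36 (SE 0.11, adjusted p = 0.0373). It was lost without fasted WT replicate 1, 2 or 4 or PparaKO replicate 2, 3 or 4 (adjusted p 0.0568 to 0.113), and quantile normalization, which ties the levels of the most abundant RNAs together, put it at -0.030 (adjusted p = 0.878). DKO libraries stood at 15.38, 15.48, 15.69 and 15.14, against 15.83, 15.90, 15.93 and 15.53 in fasted WT. DKO replicate 3 lay above the lowest WT library, and the difference of -0.37 (SE 0.14) had an adjusted p of 0.0607. It passed without fasted WT replicate 4 (-0.46, adjusted p = 0.0372) or without DKO replicate 3 (-0.46, adjusted p = 0.0321), and under equal totals or quantile normalization or in the fits without a trend or with robust variances (adjusted p 0.0157 to 0.0453). Side by side, Pck1 was thus 0.36 above its fasted WT control in PparaKO and -0.37 from it in DKO, and PparaKO was not tested against DKO because the 2 groups lie in separately scaled tables.

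G6pc (ENSMUSG00000078650.2, chr11:101367561-101377903, plus strand) encodes the catalytic subunit of glucose-6-phosphatase, the last step of glucose release. It was the member with the widest spread in fed WT, at 13.36, 11.22, 12.63 and 12.61, a 4.41-fold range. Fasted WT libraries stood at 12.15, 11.58, 12.42 and 11.65, inside that range, and no change was called (difference -0.50, SE 0.38, adjusted p = 0.374). Without fed WT replicate 2, its lowest library, the difference was -0.91 and passed (adjusted p = 0.0270), and without replicate 1, its highest library, it was -0.20 (adjusted p = 0.726). Bcl6LKO libraries were as scattered, at 11.42, 12.87, 10.76 and 11.55 against 13.44, 11.08, 12.64 and 12.63 in fed WT (difference -0.80, SE 0.50, adjusted p = 0.237). Here too the value turned on single fed WT libraries, at -1.25 without replicate 2 (adjusted p = 0.0405) and -0.47 without replicate 1 (adjusted p = 0.484). It was -1.20 without Bcl6LKO replicate 2 (adjusted p = 0.0705) and -0.50 without Bcl6LKO replicate 3 (adjusted p = 0.482).

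In the fasted mice G6pc was even in PparaKO and split in DKO. PparaKO libraries stood at 11.40, 11.02, 11.30 and 10.91, all below fasted WT at 12.01, 11.44, 12.28 and 11.51, and the gene fell by 0.65 on the log2 scale (SE 0.18, adjusted p = 0.0206). The call was lost without fasted WT replicate 1 (adjusted p = 0.0558) or PparaKO replicate 4 (adjusted p = 0.0669), and with robust variances (adjusted p = 0.0598). DKO replicates 1 and 2 stood at 11.77 and 11.12, within the fasted WT range of 11.35 to 12.26 or just below it, and replicates 3 and 4 stood far lower at 10.06 and 10.05. Over all 4 the difference was -0.999 (SE 0.37, adjusted p = 0.0509). With DKO replicate 1 left out it was -1.34 (adjusted p = 0.00590), and with DKO replicates 1 and 2 left out it was -1.70 (adjusted p = 0.000585). With DKO replicates 3 and 4 left out it was -0.30 (adjusted p = 0.390), so the DKO value depends on which of its libraries are taken.

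Slc37a4 (ENSMUSG00000032114.9, chr9:44396852-44402968, plus strand) encodes the transporter that carries glucose-6-phosphate into the endoplasmic reticulum, where G6pc acts on it. Its replicates were among the most even of the set. It stood at 10.68, 10.77, 10.76 and 10.81 in fed WT and 11.30, 11.34, 11.47 and 11.33 in fasted WT. Fasting raised it by 0.61 (SE 0.05, 1.52-fold, adjusted p = 6.3e-05), without overlap. Bcl6 loss lowered it in the fed liver, from 10.52, 10.61, 10.61 and 10.67 in WT to 9.71, 9.65, 9.69 and 9.82 in Bcl6LKO. The groups were far apart relative to their spread, with a difference of -0.88 (SE 0.05, 1.85-fold, adjusted p = 4.07e-07), and no alternative run ended this call.

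In PparaKO, Slc37a4 was at 11.24, 11.48, 11.26 and 11.57, around fasted WT at 11.38 to 11.54 (difference -0.05, SE 0.08, adjusted p = 0.717). In DKO it split with the libraries. Replicates 1 and 2 stood at 10.43 and 10.65, below the 11.28 to 11.46 of fasted WT. Replicate 3, at 11.46, lay within that range, and replicate 4, at 11.10, was below it by less. The difference over all 4 was -0.44 (SE 0.18, adjusted p = 0.0843), but it was -0.62 without DKO replicate 3 (adjusted p = 0.00765) and -0.80 without DKO replicates 3 and 4 (adjusted p = 8.51e-05). It was -0.28 without DKO replicate 1 (adjusted p = 0.196) and -0.068 without DKO replicates 1 and 2 (adjusted p = 0.653). G6pc, whose protein works with that of Slc37a4, was lowest in DKO replicates 3 and 4, and Slc37a4 was lowest in replicates 1 and 2. In replicates 2 and 4 both genes were below every fasted WT library (G6pc at 11.12 and 10.05, against 11.35 to 12.26).

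Fbp1 (ENSMUSG00000069805.10, chr13:62864753-62888282, minus strand) encodes fructose-1,6-bisphosphatase. It rose with fasting by 0.56 (SE 0.08, 1.48-fold, adjusted p = 0.00119), from 13.20 to 13.35 in fed WT to 13.66 to 14.03 in fasted WT. Bcl6LKO (13.33 to 13.55) lay just above fed WT (13.13 to 13.29) in its table, a rise of 0.21 (SE 0.07, adjusted p = 0.0373). That small rise was lost without fed WT replicate 1 or 2 or Bcl6LKO replicate 1 or 4 (adjusted p 0.0689 to 0.101), and it was -0.0097 under equal totals. PparaKO (13.55 to 13.81) overlapped fasted WT (13.71 to 14.06), with a difference of -0.25 (SE 0.10, adjusted p = 0.0848) that passed without fasted WT replicate 1 (-0.31, adjusted p = 0.0498) or PparaKO replicate 1 (-0.30, adjusted p = 0.0434). In DKO Fbp1 fell by 0.52 on the log2 scale (SE 0.15, adjusted p = 0.0178), with replicates 1 and 2 at 13.56 and 13.52 close to the lowest fasted WT library (13.62) and replicates 3 and 4 at 13.21 and 12.91. Without fasted WT replicate 3 the adjusted p was 0.0518, without fasted WT replicates 3 and 4 it was 0.163, under quantile normalization it was 0.0713, and without DKO replicates 3 and 4 the difference was -0.28 (adjusted p = 0.0737). Without DKO replicates 1 and 2 it was -0.76 (adjusted p = 0.00245).

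Pcx (ENSMUSG00000024892.17, chr19:4510472-4621752, plus strand) encodes the mitochondrial pyruvate carboxylase, the entry step of the pathway. It had the steadiest pattern of the gluconeogenic members. Fasting raised it from 12.96 to 13.05 in fed WT to 13.56 to 13.76 in fasted WT (difference 0.66, SE 0.06, 1.58-fold, adjusted p = 7.37e-05). Bcl6LKO (12.71 to 12.94) overlapped fed WT (12.86 to 12.97) in the fed table, where the difference was -0.09 (SE 0.06, adjusted p = 0.257). Both fasted knockouts were below fasted WT. PparaKO stood at 13.34, 13.18, 13.34 and 13.31 against 13.59, 13.65, 13.73 and 13.79, a fall of 0.40 (SE 0.07, adjusted p = 0.00289). DKO stood at 12.95, 13.06, 12.97 and 12.78 against 13.52, 13.58, 13.67 and 13.73 (difference -0.69, SE 0.09, 1.61-fold, adjusted p = 0.000138). Neither group overlapped its control, and no alternative run ended either call.

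The other enzymes and carriers of the pathway were taken from a list of 26 genes, of which 23 or 24 were tested in each table. The counts of this list and of those that follow are read beside the shares over all genes. These lists too were chosen with earlier results of these data known. Over all genes 11.9% rose and 11% fell with fasting, and 18.3% rose and 19.8% fell in Bcl6LKO. In PparaKO these shares were 11.7% and 13.3%, and in DKO 19.3% and 20.8%. With fasting 11 rose and 0 fell by limma (1 was lower at an unadjusted p under 0.05), with a list median of 0.18. Examples were Gpt2, a mitochondrial alanine aminotransferase (0.95, SE 0.15, adjusted p = 0.00168), Slc25a13, a mitochondrial aspartate-glutamate carrier (0.68, SE 0.065, adjusted p = 0.000116), and Slc25a10, the dicarboxylate carrier (0.64, SE 0.079, adjusted p = 0.000418). In Bcl6LKO 3 rose and 11 fell (median -0.14). Slc2a2, the hepatocyte glucose transporter, fell by 1.10 on the log2 scale (SE 0.14, adjusted p = 0.000143) and Gpt2 by 0.77 (SE 0.11, adjusted p = 0.000323). Mpc1, a subunit of the mitochondrial pyruvate carrier, rose by 0.76 (SE 0.087, adjusted p = 6.52e-05). In PparaKO 1 rose and 9 fell (median -0.14), among them Gpd1, the cytosolic glycerol-3-phosphate dehydrogenase (-1.07, SE 0.12, adjusted p = 9.09e-05), Slc25a10 (-0.91, SE 0.079, adjusted p = 1.43e-05) and Slc2a2 (-0.73, SE 0.12, adjusted p = 0.00172). In DKO 4 rose and 14 fell (median -0.35), among them Slc2a2 (-1.47, SE 0.10, adjusted p = 2.33e-06), Gpd1 (-1.28, SE 0.16, adjusted p = 0.000143) and Slc25a13 (-1.27, SE 0.093, adjusted p = 2.78e-06).

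Of 21 regulators of the pathway, 6 rose and 1 fell with fasting (median 0.23). Those that rose included Ppargc1a, the coactivator PGC-1α (0.76, SE 0.11, adjusted p = 0.000946), Esrra, an orphan receptor that it coactivates (0.49, SE 0.10, adjusted p = 0.00626), and Creb3l3, a fasting-responsive transcription factor of the liver (0.47, SE 0.067, adjusted p = 0.000891). In Bcl6LKO 3 rose and 7 fell (median -0.11), where 18.3% of all genes rose and 19.8% fell. Igfbp1, a secreted binding protein held down by insulin, rose by 1.51 (SE 0.51, adjusted p = 0.0383) and Irs2, an insulin receptor substrate, by 0.83 (SE 0.26, adjusted p = 0.0289), each with overlap between the groups, while Cebpb, a fasting-induced transcription factor, fell by 0.68 (SE 0.14, adjusted p = 0.00338). In PparaKO 5 rose and 5 fell (median 0.051). Igfbp1 was higher by 2.17 (SE 0.25, adjusted p = 0.000111), Nr4a1, a cyclic AMP-responsive orphan receptor, by 0.91 (SE 0.20, adjusted p = 0.00784) and Ppargc1a by 0.66 (SE 0.14, adjusted p = 0.00701). In DKO 3 rose and 7 fell (median -0.29), with Igfbp1 (3.32, SE 0.42, adjusted p = 0.000139) and Pdk4, a kinase that shuts pyruvate dehydrogenase (1.29, SE 0.12, adjusted p = 2.02e-05), among the former and Cebpa, a hepatocyte transcription factor (-0.95, SE 0.15, adjusted p = 0.00066), among the latter. Ppargc1a was also lower in DKO (-0.58, SE 0.13, adjusted p = 0.00601), without overlap.

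The opposing pathway was counted for contrast. Of 11 glycolytic genes, 2 rose and 4 fell with fasting (median -0.10). Pklr, the liver pyruvate kinase (-1.37, SE 0.21, adjusted p = 0.0014), and Mlxipl, which encodes ChREBP (-0.92, SE 0.085, adjusted p = 9.66e-05), were among those that fell. In Bcl6LKO 1 rose and 5 fell (median -0.62). Pfkfb3 (-1.89, SE 0.20, adjusted p = 2.95e-05) and Pfkfb2 (-0.71, SE 0.055, adjusted p = 3.52e-06), which set the level of the activator of phosphofructokinase, and Mlxipl (-0.81, SE 0.073, adjusted p = 1.03e-05) were among the latter. In PparaKO Pfkfb2 rose (0.84, SE 0.058, adjusted p = 2.37e-06) and 4 fell (median -0.17), among them Mlxipl (-0.71, SE 0.085, adjusted p = 0.000153). In DKO 1 rose (Pkm, the pyruvate kinase of other tissues, 0.38, SE 0.11, adjusted p = 0.0224) and 2 fell (median -0.20), namely Pfkfb1, the liver isoform of that kinase-phosphatase (-2.25, SE 0.21, adjusted p = 1.62e-05), and Mlxipl (-0.95, SE 0.11, adjusted p = 7.79e-05).

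**Figure D3:**
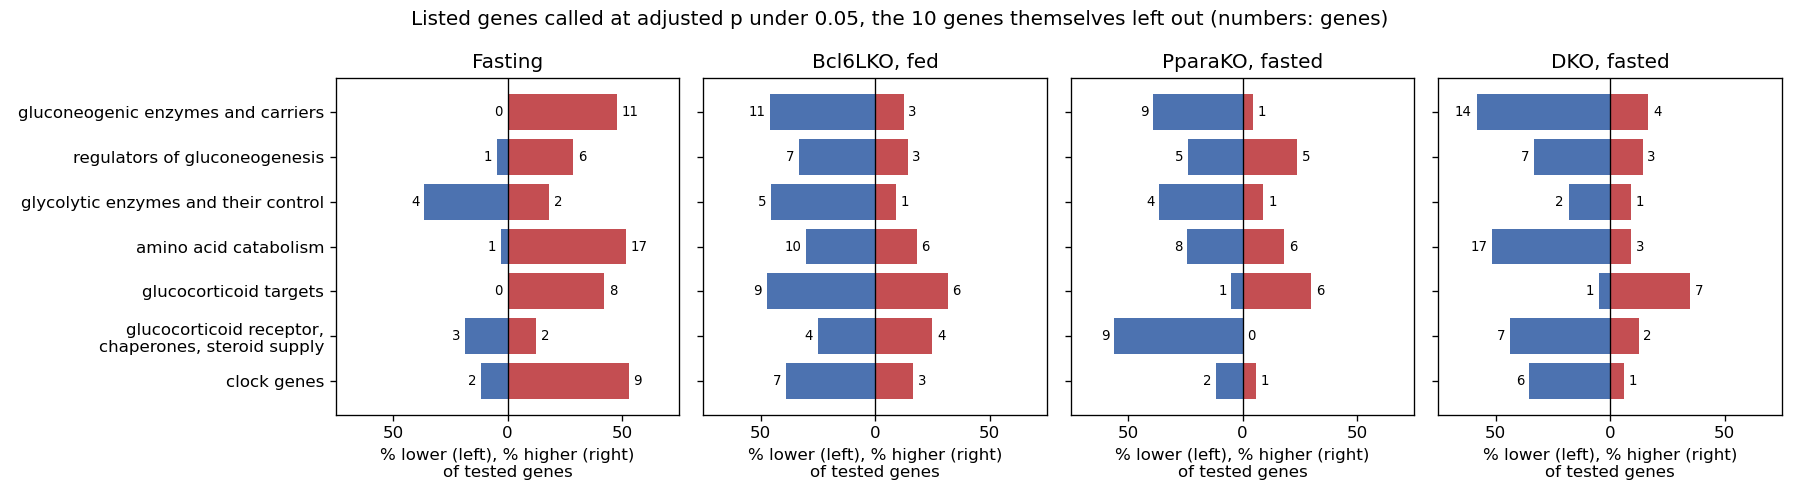
Share of tested genes in each list that were called higher (right, red) or lower (left, blue) in the 4 comparisons, the 10 genes themselves left out, with the number of genes beside each bar. The list of gluconeogenic enzymes and carriers had 11 higher and 0 lower with fasting, but 3 higher and 11 lower in Bcl6LKO and 4 higher and 14 lower in DKO. Over all tested genes, 11.9% were higher and 11% lower with fasting, and 18.3% and 19.8% in Bcl6LKO. In PparaKO these shares were 11.7% and 13.3%, and in DKO 19.3% and 20.8%.

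Tat (ENSMUSG00000001670.13, chr8:109990437-109999803, plus strand) encodes tyrosine aminotransferase, the first step of tyrosine breakdown and a textbook glucocorticoid-induced liver gene. It stood at 14.46, 13.999, 14.38 and 13.72 in fed WT and 14.66, 14.79, 14.47 and 14.24 in fasted WT. These groups overlapped, and the difference of 0.40 (SE 0.17) had an adjusted p of 0.117. Fed and fasted libraries of the same number deviated together, and blocking on the replicate number gave an adjusted p of 0.0363. Each fasted library was above the fed library of its number.

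All 3 knockouts had more Tat RNA than their WT controls. Bcl6LKO libraries stood at 14.46, 14.87, 14.81 and 14.83 and fed WT at 14.48, 13.97, 14.39 and 13.66 (difference 0.62, SE 0.17, adjusted p = 0.0150). Bcl6LKO replicate 1 lay below the highest fed WT library, and under equal totals the difference was 0.40 (adjusted p = 0.0555). PparaKO stood at 15.44, 15.74, 15.77 and 15.99, well above fasted WT at 14.84, 14.97, 14.65 and 14.43 (difference 1.01, SE 0.14, 2.02-fold, adjusted p = 0.000492). DKO stood at 15.61, 15.52, 16.04 and 16.02 against 14.75, 14.89, 14.55 and 14.32 (difference 1.17, SE 0.17, 2.25-fold, adjusted p = 0.000285). Both fasted calls were without overlap and held in every alternative run.

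Sds (ENSMUSG00000029597.14, chr5:120476526-120483932, plus strand) encodes serine dehydratase, which turns serine into pyruvate. Its exons overlap exons of Plbd2 and Gm15690 on the other strand, and whether the authors counted reads by strand was not given in the sources used here, so its values may hold reads of those genes. Sds stood at 10.95, 10.95, 10.45 and 10.40 in fed WT and 11.17, 11.51, 11.29 and 11.71 in fasted WT, a rise of 0.73 (SE 0.15, 1.66-fold, adjusted p = 0.00715). The groups did not overlap. Bcl6LKO (9.92 to 10.61) overlapped fed WT (10.23 to 10.85), with a difference of -0.37 (SE 0.18, adjusted p = 0.122) that passed without Bcl6LKO replicate 4 (-0.51, adjusted p = 0.0345). The fasted knockouts differed in sign. PparaKO (12.02 to 12.24) lay above fasted WT (11.34 to 11.86), a rise of 0.52 (SE 0.10, adjusted p = 0.00468). DKO stood at 10.78, 10.91, 11.41 and 11.27 against 11.16 to 11.73 in fasted WT (difference -0.33, SE 0.16, adjusted p = 0.119), and it was -0.58 without DKO replicates 3 and 4 (adjusted p = 0.0105) and -0.085 without DKO replicates 1 and 2 (adjusted p = 0.692).

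Got1 (ENSMUSG00000025190.13, chr19:43499752-43524605, minus strand) encodes the cytosolic aspartate aminotransferase, which moves nitrogen and reducing equivalents between the cytosol and the mitochondrion. Fed WT stood at 11.49, 10.87, 11.31 and 10.99 and fasted WT at 12.23, 11.90, 12.99 and 12.95. The fasted libraries divided into replicates 1 and 2 and replicates 3 and 4, but all were above the fed ones, and the rise was 1.36 (SE 0.24, 2.56-fold, adjusted p = 0.00292). With fasted WT replicates 1 and 2 alone it was 0.90 (adjusted p = 0.00944), and with replicates 3 and 4 alone 1.81 (adjusted p = 0.000435). Bcl6LKO stood at 11.13, 11.24, 11.32 and 11.69 against 10.66 to 11.36 in fed WT (difference 0.35, SE 0.16, adjusted p = 0.106). Without fed WT replicate 1 this passed (0.47, adjusted p = 0.0275).

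In the fasted knockouts the split of the WT controls carried through for Got1. PparaKO stood at 13.14, 13.49, 13.48 and 13.86 and fasted WT at 12.50, 12.18, 13.22 and 13.19 (difference 0.72, SE 0.22, adjusted p = 0.0370). The call was lost without fasted WT replicate 1 or 2 or PparaKO replicate 2, 3 or 4 (adjusted p 0.0661 to 0.110), and with robust variances (0.0993). Without fasted WT replicates 1 and 2 the difference was 0.29 (adjusted p = 0.275) and without 3 and 4 it was 1.15 (adjusted p = 0.00142). DKO stood at 12.42, 12.54, 12.97 and 13.13 against 12.33, 11.98, 13.12 and 13.08 (difference 0.14, SE 0.26, adjusted p = 0.704), a difference that was -0.34 without fasted WT replicates 1 and 2 (adjusted p = 0.249) and 0.61 without 3 and 4 (adjusted p = 0.0613).

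Of 33 other genes of amino acid breakdown, 17 rose and 1 fell with fasting (median 0.24). Mat1a, the liver methionine adenosyltransferase, rose by 1.84 (SE 0.12, adjusted p = 3.05e-05), Asl, the argininosuccinate lyase of the urea cycle, by 1.30 (SE 0.11, adjusted p = 6.81e-05) and Cth, cystathionine gamma-lyase, by 1.12 (SE 0.13, adjusted p = 0.000294). In Bcl6LKO 6 rose and 10 fell (median -0.008), where 18.3% of all genes rose and 19.8% fell. Mat1a (1.26, SE 0.10, adjusted p = 4.28e-06) and Agxt, alanine-glyoxylate aminotransferase (1.06, SE 0.083, adjusted p = 3.31e-06), were among the former and Aadat, the aminoadipate aminotransferase (-1.33, SE 0.15, adjusted p = 6.2e-05), among the latter. In PparaKO 6 rose and 8 fell (median 0.045), and Sdsl, a serine dehydratase-like enzyme (1.03, SE 0.11, adjusted p = 6.66e-05), Arg1, liver arginase (0.60, SE 0.11, adjusted p = 0.00246), and Prodh, proline dehydrogenase (0.46, SE 0.084, adjusted p = 0.00247), were among those that rose. In DKO 3 rose and 17 fell (median -0.27), with Aadat (-1.10, SE 0.11, adjusted p = 2.64e-05) and Aass, the first enzyme of lysine breakdown (-1.07, SE 0.16, adjusted p = 0.000457), lower and Agxt (1.08, SE 0.16, adjusted p = 0.000457) higher. The rise of Tat in DKO thus stood beside a list in which 17 of 33 genes fell.

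Fkbp5 (ENSMUSG00000024222.17, chr17:28399094-28517527, minus strand) encodes FKBP51, a chaperone that binds the glucocorticoid receptor complex, lowers its affinity for hormone and is itself induced by the receptor. It had the largest difference of the 10 genes in the fasting and in the Bcl6LKO comparison. Fed WT stood at 9.10, 9.56, 9.15 and 9.16 and fasted WT at 11.04, 10.98, 10.71 and 11.07, more than 1 unit apart at their closest. Fasting raised it by 1.71 (SE 0.11, 3.26-fold, adjusted p = 2.43e-05). Bcl6 loss raised it in the fed liver by nearly as much, from 8.94, 9.46, 8.99 and 9.01 in WT to 10.58, 10.66, 10.74 and 10.88 in Bcl6LKO (difference 1.62, SE 0.11, 3.06-fold, adjusted p = 1.26e-06). Both calls held in every alternative run.

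In fasted mice Fkbp5 was not called in PparaKO, at 11.21, 11.64, 10.99 and 11.46 against 11.28, 11.21, 10.95 and 11.31 in fasted WT (difference 0.14, SE 0.13, adjusted p = 0.474). DKO libraries stood on both sides of fasted WT (11.21, 11.14, 10.86 and 11.24). Replicates 1 and 2 were at 10.75 and 10.61, below every fasted WT library, and replicates 3 and 4 at 11.71 and 11.52, above every one. Their mean of 11.15 ± 0.55 (SD, n = 4) was 0.033 from that of WT (SE 0.23, adjusted p = 0.926). Taken apart, DKO replicates 3 and 4 differed from fasted WT by 0.50 and replicates 1 and 2 by -0.43, so the small mean difference does not describe any of the 4 libraries. The pairs were chosen after these values were seen, so no p-value is given for them.

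Tsc22d3 (ENSMUSG00000031431.13, chrX:140539528-140600659, minus strand) encodes GILZ, the glucocorticoid-induced leucine zipper, an anti-inflammatory protein widely used as a readout of receptor activity. Unlike Fkbp5 it was not called with fasting. It stood at 11.18, 10.58, 10.54 and 10.21 in fed WT and 10.89, 11.14, 10.78 and 10.27 in fasted WT, with full overlap (difference 0.14, SE 0.21, adjusted p = 0.669). In Bcl6LKO it fell, from 11.14, 10.47, 10.43 and 10.07 in fed WT to 9.22, 9.79, 9.63 and 9.80, without overlap (difference -0.92, SE 0.20, 1.89-fold, adjusted p = 0.00467). The pair of glucocorticoid targets therefore moved in opposite directions in the same Bcl6LKO libraries, both past the threshold.

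In PparaKO Tsc22d3 was not called, at 10.73, 10.45, 10.69 and 10.87 against 10.90, 11.15, 10.78 and 10.29 (difference -0.10, SE 0.15, adjusted p = 0.687). DKO stood at 9.29, 9.50, 10.29 and 9.41 against 10.78, 11.05, 10.65 and 10.10 in fasted WT. Replicate 3 was the 1 DKO library above the lowest WT library, and Tsc22d3 fell by 1.02 (SE 0.24, 2.03-fold, adjusted p = 0.00615). The fall was -0.79 without DKO replicates 1 and 2 (adjusted p = 0.0543) and -0.75 without fasted WT replicates 1 and 2 (adjusted p = 0.0766). It was -1.25 without DKO replicates 3 and 4 (adjusted p = 0.00152) and -1.29 without fasted WT replicates 3 and 4 (adjusted p = 0.00647). Side by side, both groups that lacked Bcl6 in hepatocytes had less Tsc22d3 than their controls (-0.92 and -1.02), and the group that lacked Ppara alone did not pass the test.

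**Figure D4:**
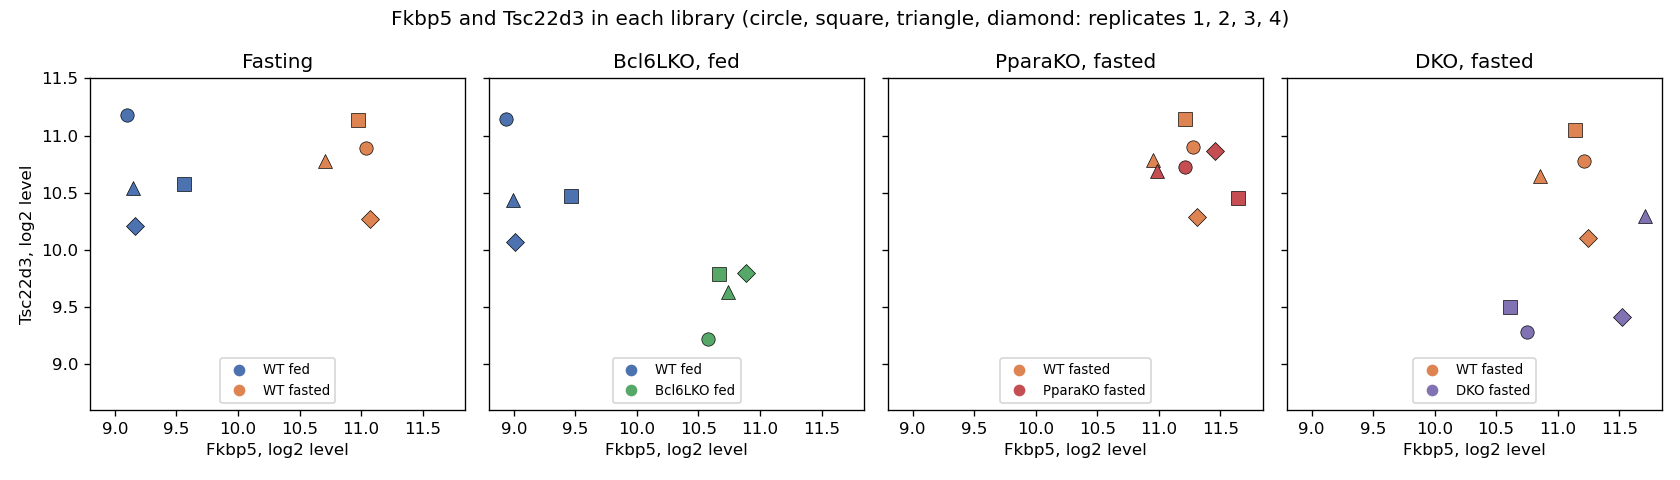
Tsc22d3 against Fkbp5 in each library of the 4 comparisons, both as log2 levels, with the replicate number given by the symbol. Fasted WT moves right of fed WT without a step down, Bcl6LKO moves right and down, and the 4 DKO libraries lie below most of fasted WT with Fkbp5 at 10.61 and 10.75 in replicates 2 and 1 and at 11.52 and 11.71 in replicates 4 and 3.

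Other known glucocorticoid targets went both ways in Bcl6LKO, whereas most of those called in the other comparisons were higher. Of 21 on the list, 19 or 20 were tested. With fasting 8 rose and 0 fell by limma (1 was lower at an unadjusted p under 0.05), with a median of 0.30. The metallothioneins Mt2 (2.52, SE 0.38, adjusted p = 0.00137) and Mt1 (2.47, SE 0.25, adjusted p = 0.000139), which bind zinc and also answer to metals and inflammation, rose, as did Per1, a clock gene with a known receptor site (0.89, SE 0.14, adjusted p = 0.00168). In Bcl6LKO 6 rose and 9 fell (median -0.37). Mt2 (3.24, SE 0.34, adjusted p = 2.88e-05) and Mt1 (2.83, SE 0.29, adjusted p = 2.66e-05) were higher, and Lpin1, a phosphatidate phosphatase induced by fasting hormones, was lower (-1.46, SE 0.23, adjusted p = 0.000566). In PparaKO 6 rose and 1 fell (median 0.13), with Mt2 (1.22, SE 0.38, adjusted p = 0.0362), Mt1 (1.15, SE 0.28, adjusted p = 0.0125) and Sgk1, a serum- and glucocorticoid-induced kinase (difference 0.997, SE 0.13, adjusted p = 0.000319), among those that rose. In DKO 7 rose and 1 fell, with Sgk1 (3.08, SE 0.15, adjusted p = 1.46e-07), Mt2 (2.19, SE 0.33, adjusted p = 0.000463) and Mt1 (2.06, SE 0.24, adjusted p = 6.68e-05) higher and a list median of 0.024.

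Genes that set hormone supply and receptor level were listed beside the targets. Nr3c1, the glucocorticoid receptor itself, was lower by 0.16 with fasting (10.83 to 10.92 against 10.95 to 11.07 in fed WT, adjusted p = 0.0283), by 0.27 in PparaKO (adjusted p = 0.00806) and by 0.30 in DKO (adjusted p = 0.00465), without overlap in each. In Bcl6LKO its difference was -0.06 (SE 0.05, adjusted p = 0.362). The gene of the plasma globulin that binds corticosteroids, Serpina6, differed far more where Bcl6 was lost. It stood at 11.28 to 11.45 in fed WT and 17.48 to 17.70 in Bcl6LKO (difference 6.22, SE 0.07, adjusted p = 6.67e-13), and at 11.30 to 12.04 in fasted WT and 16.99 to 17.47 in DKO (5.67, SE 0.17). In PparaKO it fell by 1.42 (SE 0.16, adjusted p = 0.000105), and with fasting its difference was 0.16 (SE 0.13, adjusted p = 0.414). Hsd11b1, the reductase that regenerates active glucocorticoid within the hepatocyte, rose by 1.16 in Bcl6LKO (SE 0.09, adjusted p = 3.7e-06) and by 1.10 in DKO (SE 0.14, adjusted p = 0.000124). Srd5a1, a steroid 5α-reductase that clears the hormone, was lower, with differences of -1.82 and -1.95 in those groups. Over all 16 genes of this list, 2 rose and 3 fell with fasting, 4 rose and 4 fell in Bcl6LKO, 0 rose by limma (0 at an unadjusted p under 0.05) and 9 fell in PparaKO, and 2 rose and 7 fell in DKO. Circulating hormone was not measured in these files, and the part of these genes in the members' changes was not tested.

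Because glucocorticoids follow the day and several members are rhythmic in liver, 18 clock genes were counted beside them, of which 17 or 18 were tested. With fasting 9 rose and 2 fell, led by Usp2 (1.74), Ciart (1.30) and Per1 (0.89), in Bcl6LKO 3 rose and 7 fell, with Arntl at 1.21, Ciart at -1.14 and Per2 at -1.13, in PparaKO 1 rose (Per1, 0.48, adjusted p = 0.0449) and 2 fell (Nfil3 among them), and in DKO 1 rose and 6 fell, led by Ciart (-1.22), Usp2 (-0.71) and Per2 (-0.68). Within fed WT, replicate 1, which had the highest G6pc and Tsc22d3, also had the lowest Dbp (9.69, against 10.30 to 10.46 in the other 3) and the highest Arntl (6.48, against 5.94 to 6.17). Within DKO, replicates 1 and 2, lower in Fkbp5, had Arntl at 6.91 and 6.37 and replicates 3 and 4 at 5.82 and 5.87. Per1 (9.86 and 10.24 against 10.91 and 10.96) also divided there. Per2 was lowest in replicates 1 and 2 (8.66 and 8.91), but replicate 3 (9.06) lay nearer to replicate 2 than to replicate 4 (9.71). The clock genes Dbp (10.13, 10.38, 10.57 and 10.28) and Nr1d1 (10.67, 10.68, 10.66 and 10.18) did not divide in that way. The hour of collection is not in the labels, and its part in the members' values was not tested.

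Markers of liver zones and of other cells were read in the same libraries. The summed level of 8 markers of periportal hepatocytes, the zone in which gluconeogenesis is concentrated, was 15.29 to 15.40 in fed WT and 15.36 to 15.56 in fasted WT (5 rose, 2 fell), 14.67 to 15.05 in Bcl6LKO against 15.24 to 15.36 (1 rose, 3 fell), 15.46 to 15.68 in PparaKO against 15.40 to 15.59 (2 rose, 0 fell, 1 at an unadjusted p under 0.05), and 14.93 to 15.10 in DKO against 15.28 to 15.48 (2 rose, 3 fell). The summed level of 11 pericentral markers was 16.65 to 17.06 in fed WT and 17.38 to 17.68 in fasted WT (3 rose, 3 fell), 16.33 to 16.41 in Bcl6LKO against 16.53 to 16.97 (3 rose, 3 fell), 17.27 to 17.39 in PparaKO against 17.43 to 17.73 (3 rose, 2 fell), and 16.13 to 16.38 in DKO against 17.28 to 17.60 (2 rose, 3 fell). The medians of the pericentral markers were -0.055, 0.081, 0.14 and -0.047 in that order, and those of the periportal markers 0.28, -0.14, 0.17 and -0.10. The pericentral sum is weighted by its most abundant marker, Cyp2e1, a cytochrome P450, whose mean was 16.98 in fasted WT and 14.95 in DKO. The periportal sum is also weighted by abundant markers, such as Cyp2f2 (mean 14.11 in fed WT and 12.90 in Bcl6LKO). Aldh1b1, the 1 periportal marker that rose in Bcl6LKO, was higher by 2.01. Neither summed level thus describes its list as a whole. Erythroid markers were higher in fasted WT (7 of 8 rose, 1 fell, summed level 13.53 to 13.87 against 12.36 to 12.93) and lower in DKO (7 of 8 fell, 12.65 to 13.13 against 13.53 to 13.90). Endothelial markers were higher in Bcl6LKO (7 of 10 rose, 13.31 to 13.52 against 13.08 to 13.24). No marker of hepatocytes, Kupffer cells, endothelium, stellate cells, cholangiocytes, lymphocytes or neutrophils was at 0 in every library of a table, whereas Lep and Myh4 of adipose tissue and muscle, and Amy2a5 and Ins2 of pancreas, were at 0 in all 4 tables. The part of these cells in the members' changes was not tested.

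To describe which other genes followed the same pattern, the correlation with Pck1 and with Fkbp5 was taken over the 8 libraries of each table and averaged over the 4 tables, for 11655 genes tested in all of them. The libraries of a table share its scaling and 2 groups, so these values are a description of likeness only. Nearest to Pck1 were Slc7a2, a transporter of arginine and other cationic amino acids (mean r 0.795), Sik3, a salt-inducible kinase (0.788), and Errfi1, an inhibitor of the EGF receptor (0.785, from 0.659 to 0.92 over the tables). Nearest to Fkbp5 were Fmo2, a flavin monooxygenase (mean r 0.796), the host gene Mir22hg (0.757) and Eef1d, a translation elongation factor subunit (0.746). Their correlations with Fkbp5 differed between the tables, from 0.54 to 0.965 for Fmo2, 0.585 to 0.96 for Mir22hg and 0.343 to 0.984 for Eef1d.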

How the data were processed

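Liver RNA was made into stranded, ribosome-depleted libraries and sequenced by the study. The authors used STAR for alignment to mm10, HOMER for counts over exons and DESeq2 for normalization (their tool, not used here), and deposited 4 tables, each with 8 libraries. The library values deposited by the authors are log2 levels that behave like a regularised logarithm, scaled within each table. Read depth per library is unknown, so no counting interval is given. The deposited log2 fold changes, p-values and adjusted p-values of the authors' own comparisons (3 columns a table) were not used. Groups came from the sample titles.

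Genes at 0 in every library of a table or with a mean under 4 were left out. Groups were compared with limma 3.58.1 (R 4.3.3, empirical Bayes with a trend) on the deposited values within each table, all genes in 1 fit, two-sided, with Benjamini-Hochberg adjustment. The fit was tested on simulated data. The members and gene lists were chosen with earlier results of these data known. The genes named are the 10 members, Bcl6, Ppara, Nr3c1 and Serpina6 in every comparison, up to 3 genes a pathway list with the largest called difference, and the 3 genes most like Pck1 and Fkbp5. Outside this rule, Dbp and Nr1d1, Arntl, Per1 and Per2 in single libraries, and Ppargc1a in DKO were also named as descriptions after their values were seen. Some listed genes that this rule names are not reported here. Members were left out of the list counts, and listed genes not in the tables were not counted. Same-numbered fed and fasted WT libraries deviated together over all tested genes (correlation of deviations from the group means 0.133 to 0.257 for the 4 pairs). The main fit did not use this pairing, and the replicate block was run as an alternative only. In the other tables same-numbered libraries did not deviate together. Promoters came from RefSeq and positions from GENCODE vM21, both on GRCm38.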

Additional observations from a re-analysis of the deposited data

Results flagged for a closer look

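In each group of 4 libraries, a library was picked out where its gap to the nearest other as a share of the group's range passed Dixon's critical value for 4 samples, which chance passes in about 1 of 20 groups. Of 80 combinations of member, table and group, 3 passed, in 2 libraries. Fkbp5 in fed WT replicate 2 was the highest of its group in both tables that hold this library, at 9.56 in the fasting table (the others at 9.10 to 9.16) and at 9.46 in the Bcl6LKO table (the others at 8.94 to 9.01). It remained below every fasted WT and every Bcl6LKO library. Tat in Bcl6LKO replicate 1, at 14.46, was the lowest of its group (the others at 14.81 to 14.87) and lay within the range of fed WT.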

How the results depend on the processing

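The alternatives run were median centring, equal totals, quantile normalization, no filter or a minimum mean of 6, limma without a trend or with robust variances, an offset of 16 before the log, the replicate block, each library left out in turn and, chosen after seeing the data, pairs of fasted WT or DKO libraries left out. Of 760 values of a member's difference under an alternative, 676 kept direction and side of the threshold, 39 lost the call, 28 gained it and 17 changed sign. Under equal totals the genes called were 4103 with fasting and 7865 in Bcl6LKO, against 2725 and 4606, and 7 members were called in DKO against 4. With the replicate block 7 members were also called in DKO, 8 with fasting, 5 in Bcl6LKO and 5 in PparaKO, Pck1 losing its call in the last 2 (adjusted p 0.0586 and 0.0640). Outside the fasting table same-numbered libraries did not deviate together (correlations -0.133 to 0.099), so there the block rests on a shared number alone. Leaving out each library in turn gave 7 to 8 called members with fasting, 4 to 6 in Bcl6LKO, 3 to 7 in PparaKO (3 without PparaKO replicate 4) and 3 to 6 in DKO. PparaKO against fasted WT without replicates 1 and 2 of the latter called 1834 genes in place of 2986.

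Signs changed as follows, and the causes were not tested. Equal totals put Fbp1 in Bcl6LKO at -0.0097 and Fkbp5 in DKO at -0.054. Quantile normalization put Pcx in Bcl6LKO at 0.0079, Pck1 in PparaKO at -0.030 and Slc37a4 in PparaKO at 0.085. Over single libraries left out, Tsc22d3 in PparaKO ranged from -0.26 to 0.028, Slc37a4 in PparaKO from -0.11 to 0.0026, Got1 in DKO from -0.079 to 0.30 and Fkbp5 in DKO from -0.15 to 0.21. Without fasted WT replicates 1 and 2, Tsc22d3 was at -0.10 with fasting and 0.15 in PparaKO, and Got1 was at -0.34 in DKO. Without fasted WT replicates 3 and 4, Fkbp5 was at -0.031 in DKO. Without DKO replicates 3 and 4, Got1 was at -0.15 and Fkbp5 at -0.43.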
